A study of Mus musculus with 25 samples.

Results

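The complement and coagulation proteins of liver were followed here through the RNA of 39 genes, matched by symbol to the Ensembl identifiers of the deposited tables, among 48795 genes in those tables. The genes were listed by name and function, with earlier results of these data known. All 39 passed the filter on low counts and were among the 15625 genes tested. The source is a mouse study of liver cancer, in which RNA of liver and tumor tissue was sequenced in 25 samples of 5 groups. All mice were male C57BL/6J. The groups labelled DEN received the liver carcinogen diethylnitrosamine (DEN) at 25 mg/kg into the abdomen at 2 weeks of age, and the groups labelled nonDEN did not. From weaning the mice ate a control diet (CD) or a western-like diet (WD) until harvest, given as 36 weeks of age and in another place as up to 39 weeks. Without DEN there were 3 livers after control diet (nonDEN-L-CD) and 4 after western diet (nonDEN-L-WD). With DEN there were 4 livers after control diet (DEN-L-CD), and western-fed mice gave 8 samples of peritumoral tissue (DEN-PT-WD) and 6 tumors (DEN-T-WD). Tumors of DEN mice on the control diet were too small to be separated, so DEN-L-CD liver can hold them. The labels do not say which tumor and which peritumoral sample came from the same mouse, nor that every sample of a group came from another mouse, so the p-values below measure the spread between these samples.

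Hepatocytes make and secrete most circulating complement and clotting proteins. Complement is a protease cascade of host defence that starts from antibody (classical pathway), from sugar-binding lectins (lectin pathway) or from spontaneous turnover of C3 (alternative pathway), converges on C3 and ends in a pore made of the terminal components. Coagulation is a second cascade, in which thrombin turns fibrinogen into fibrin, protease inhibitors hold the enzymes in check and plasmin dissolves the clot. Several of these genes, fibrinogen and C3 among them, are acute phase genes that liver induces in inflammation.

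The libraries held between 21530083 and 38074411 expected counts, the fractional read counts that RSEM estimates per gene. All values by sample below are normalized counts, which are expected counts scaled to library sizes by the trimmed mean of M values (TMM). They compare a gene between libraries, and levels of different genes are compared only in the length-corrected transcript shares that RSEM writes as TPM. The 8 hepatocyte markers fixed for this work, Alb and Apoa1 among them, were detected in every library, with summed levels of 54330 to 89638 TPM outside tumors. In 5 of the 6 tumors the sum was 146055 to 168300 TPM, and in DEN-T-WD replicate 5 it was 43483 TPM. The high sums came from Alb, Apoa1, Trf and Serpina1a, whereas the medians of Ttr, Tat and Cps1 were 2889, 450 and 487 TPM in tumors against 3548, 740 and 644 TPM in peritumoral tissue. Markers of Kupffer cells and macrophages summed to 179 to 400 TPM in the 3 liver groups, 289 to 666 TPM in peritumoral tissue and 289 to 667 TPM in tumors. Lyz2 and Cd5l made up most of that sum, and the medians of the resident Kupffer cell markers Clec4f, Marco and Timd4 were 45.0, 2.39 and 1.7 TPM in tumors against 79.3, 8.13 and 4.79 TPM in peritumoral tissue. Endothelial markers summed to 94 to 153 TPM in the 3 liver groups, 158 to 199 TPM in peritumoral tissue and 156 to 186 TPM in tumors. Stellate cell markers summed to 29 to 78, 66 to 109 and 102 to 127 TPM in the same order, though Lrat and Des had lower medians in tumors than in peritumoral tissue. Markers of pancreatic acinar cells summed to 0.36 to 6817 TPM, highest in DEN-PT-WD replicates 1 and 2 (6817 and 2713 TPM) and DEN-L-CD replicate 3 (2479 TPM). The 16 acute phase genes outside the list summed to 24061 and 25920 TPM in nonDEN-L-CD replicates 2 and 3, against 8497 TPM in replicate 1. In whole tissue, fewer cells of a type and less RNA per cell cannot be told apart.

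By median TPM over the 25 libraries, the fibrinogen genes Fga (3152 TPM) and Fgg (2911 TPM) headed the list. Serpinc1 (antithrombin, 1821 TPM), the third fibrinogen gene Fgb (1713 TPM) and C3 (1670 TPM) followed. C5ar1, the receptor for the C5a fragment on myeloid cells, was the lowest at a median of 1.34 TPM, which leaves 27 to 167 normalized counts per library. Summed over the 39 genes, the level was 22684 to 33909 TPM in nonDEN-L-CD, 18037 to 22292 TPM in nonDEN-L-WD, 18872 to 23998 TPM in DEN-L-CD, 18594 to 28653 TPM in peritumoral tissue and 20272 to 31202 TPM in tumors. Without fibrinogen, the sum of the other genes was 12539 to 13983 TPM in the 3 liver groups, 13016 to 18811 TPM in peritumoral tissue and 15478 to 20233 TPM in tumors.

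**Figure D1:**
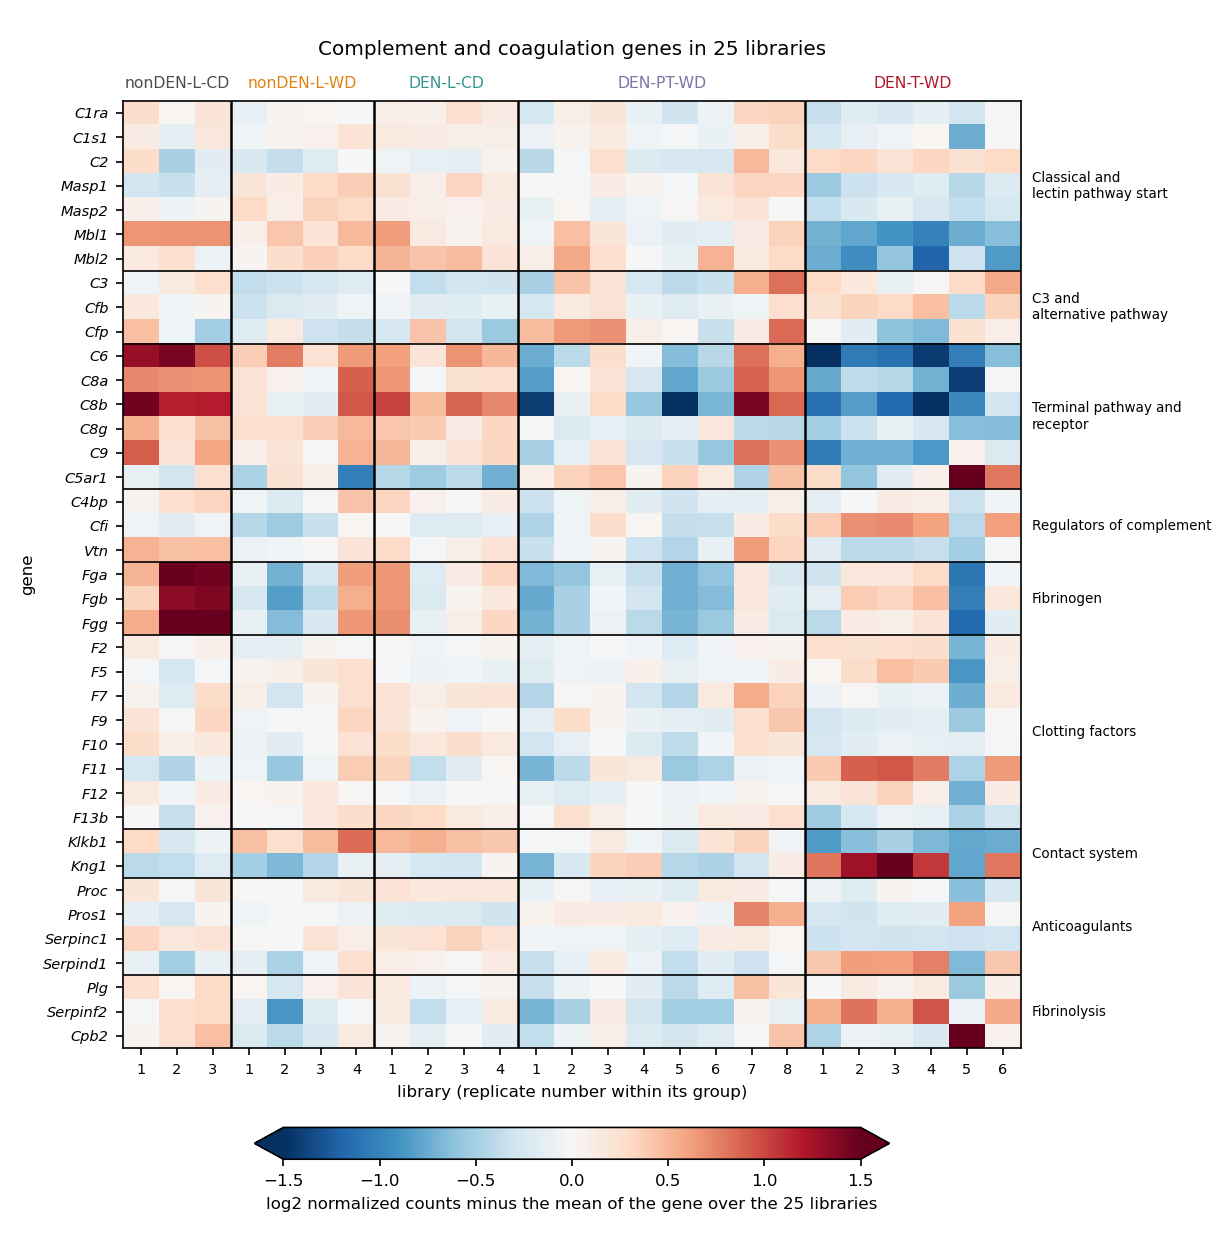
Heat map of the 39 genes (rows, grouped by role) in the 25 libraries (columns, grouped as labelled), in log2 normalized counts minus each gene's mean over the libraries; the scale is clipped at 1.5 on either side. Fibrinogen is high in nonDEN-L-CD replicates 2 and 3, Mbl1, Mbl2, C6, C8b and Klkb1 are low in the tumors, and DEN-T-WD replicate 5 has its own pattern.

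All comparisons of groups and the interaction of DEN with diet were taken from a single edgeR fit over the 5 groups, and a gene was called at a Benjamini-Hochberg adjusted p of at most 0.05 over all tested genes. With western diet and no DEN (the 4 livers of nonDEN-L-WD set against nonDEN-L-CD), 6 of 39 genes were called (15.4%), 3 higher and 3 lower, where 23.2% of all tested genes were called, 11.2% higher and 12% lower. With DEN and control diet (the 4 livers of DEN-L-CD set against nonDEN-L-CD), 4 were called (10.3%), 2 higher and 2 lower, against a background of 21.3%, 9.12% higher and 12.2% lower. Peritumoral tissue was lower than nonDEN-L-WD liver in 3 genes (7.69%) and higher in none, with 12.4% of all genes called, 7.5% higher and 4.87% lower. It was lower than DEN-L-CD liver in 3 genes and higher in none, with 10.6% called, 6.8% higher and 3.76% lower. On the count scale the share of the 39 genes was below the background in each of these comparisons. With limma on log2(TPM + 1) the peritumoral calls turned, to 7 higher and 2 lower against nonDEN-L-WD, where 21.6% of all genes were higher and 0.55% lower, and to 12 higher (30.8%) and none lower against DEN-L-CD, where 38.5% of all genes were higher and 0.602% lower, and the median of all tested genes lay 0.16 and 0.23 above 0 in log2. On the TPM scale the western diet comparison had 4 higher and 3 lower genes, in place of 3 and 3, with 9.36% of all genes higher and 3.85% lower. The DEN comparison had 3 and 1, in place of 2 and 2, with 5.16% higher and 5.41% lower. These comparisons share groups, so their counts are not independent of each other.

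Tumors differed from peritumoral tissue in 18 of the 39 genes (46.2%, with 37.7% of all tested genes called). Of these, 13 fell and 5 rose, where 18.1% of all genes fell and 19.5% rose. Against nonDEN-L-WD liver, tumors differed in 20 genes (51.3%, with 49.0% called), of which 13 fell and 7 rose, where 23.1% of all genes fell and 25.9% rose. The count of higher and lower genes depended on the scale: on log2(TPM + 1) with limma, 15 genes were called in tumors against peritumoral tissue, 8 of them higher, where 27% of all genes were higher and 8.92% lower. Against nonDEN-L-WD liver 23 were called, 16 of them higher, where 48% of all genes were higher and 7.19% lower. On that scale the median of all tested genes itself lay 0.09 above 0 in the former comparison and 0.26 above 0 in the latter, against 0.01 and 0.02 on the count scale, all in log2. The median of the 39 genes was -0.14 and -0.13 on the count scale, and -0.0056 and 0.23 on the TPM scale, so that the latter turned direction. Values below are on the count scale unless TPM is named. Changes of over 2-fold were 3 of 39 against peritumoral tissue (C6, C8b and Kng1, with 7.9% of all genes past this rule) and 5 of 39 against nonDEN-L-WD liver (C6, Kng1, C8b, Klkb1 and Mbl1, with 15.7% of all genes).

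**Figure D2:**
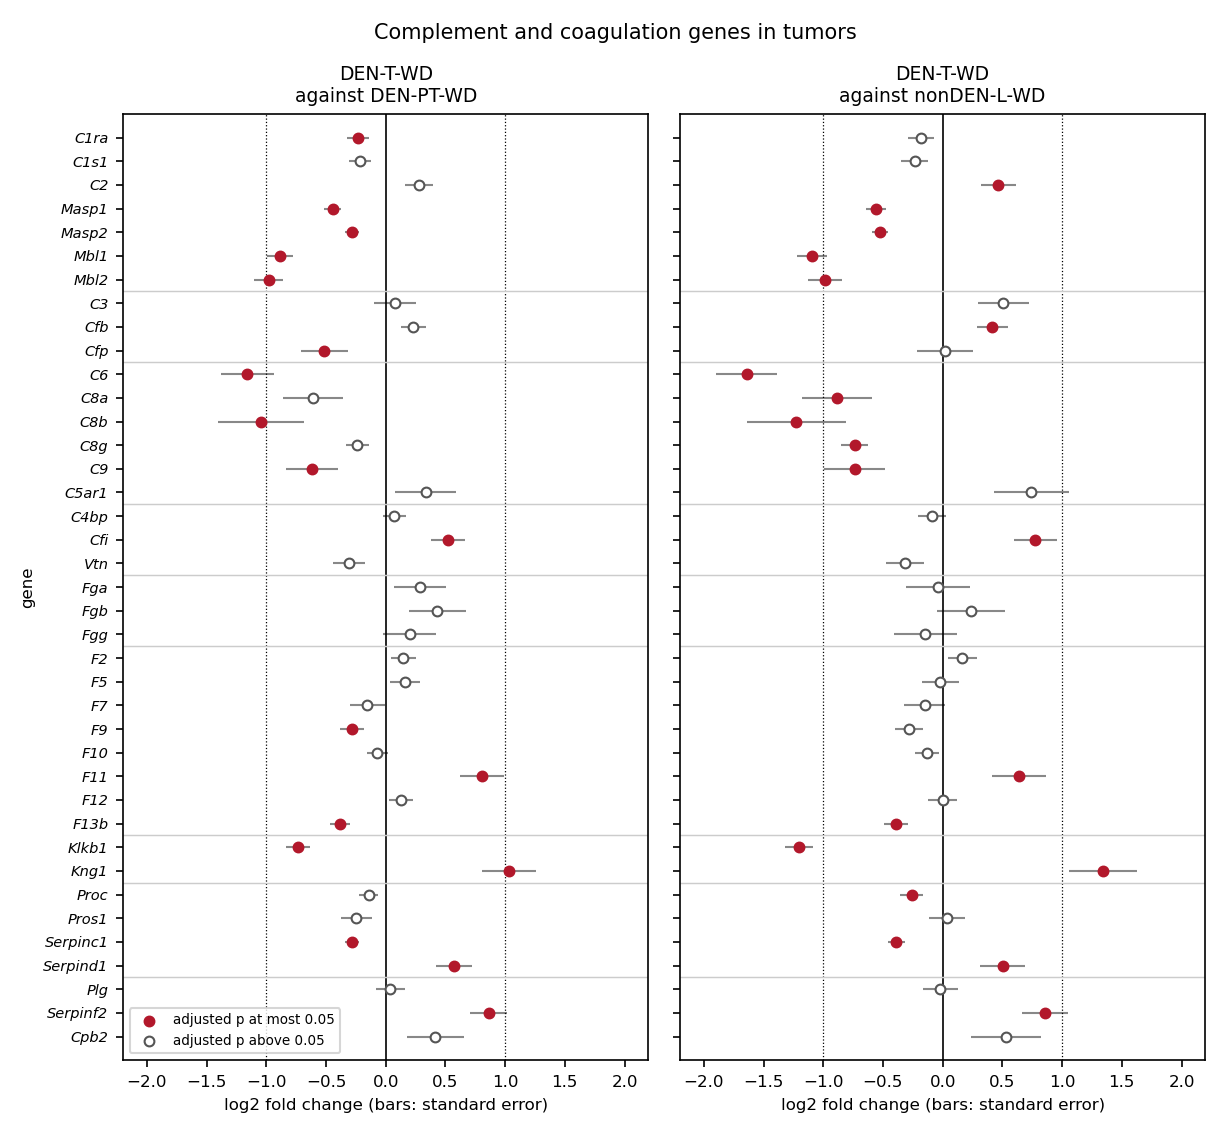
Log2 fold change (point) and standard error (bar) of each of the 39 genes in DEN-T-WD against DEN-PT-WD (left) and against nonDEN-L-WD (right); filled points have an adjusted p of at most 0.05 and dotted lines mark 2-fold. C6 lies lowest at -1.16 and -1.64 and Kng1 highest at 1.04 and 1.34.

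The lectin pathway recognises sugars on microbes through mannose-binding lectins, of which mice have a pair, encoded by Mbl1 (chr14:41151458-41159601) and Mbl2 (chr19:30232942-30239687). Both fell in tumors. Mbl1 stood at 2729, 3141 and 4188 normalized counts in peritumoral tissue (lowest, median, highest) and at 1520, 1806 and 1967 in tumors. Mbl2 stood at 5988, 7443 and 9630 in peritumoral tissue and at 2829, 3726 and 5219 in tumors. No tumor overlapped a peritumoral sample for either gene. The log2 fold change was -0.89 ± 0.11 (SE) for Mbl1 (adjusted p = 2.283e-06) and -0.98 ± 0.12 for Mbl2 (adjusted p = 2.772e-06).

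In the untreated and control diet livers the lectins took different orders. Mbl1 was 4831, 4895 and 4897 in nonDEN-L-CD livers, 3234, 4085, 3539 and 4285 in nonDEN-L-WD livers. In DEN-L-CD it was 4746, 3375, 3145 and 3378 in DEN-L-CD. Its highest group was nonDEN-L-CD, with no overlap with either of the others, as for 10.6% of all genes, but the differences did not pass (adjusted p = 0.07937 and 0.05065). Mbl2 was 7161, 7635 and 6091 in nonDEN-L-CD livers, 6643, 7759, 8322 and 7919 in nonDEN-L-WD livers, and 9205, 8703, 8931 and 7423 in DEN-L-CD livers. Against nonDEN-L-WD, tumors were lower by -1.10 ± 0.12 for Mbl1 (adjusted p = 3.538e-07) and by -0.99 ± 0.14 for Mbl2 (adjusted p = 5.892e-06), in log2 fold change. In TPM the ratio of Mbl2 to Mbl1 was 1.03 to 1.29 in nonDEN-L-CD and 1.51 to 2.77 elsewhere.

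Because the lectin genes lie on different chromosomes and fell together in tumors, the bases before their RefSeq starts (build GRCm38.p6) are shown, with the longest run of letters that they share in capitals, for Mbl1 at chr14:41151206-41151455 and for Mbl2 at chr19:30232678-30232927, both on the plus strand.
Mbl1: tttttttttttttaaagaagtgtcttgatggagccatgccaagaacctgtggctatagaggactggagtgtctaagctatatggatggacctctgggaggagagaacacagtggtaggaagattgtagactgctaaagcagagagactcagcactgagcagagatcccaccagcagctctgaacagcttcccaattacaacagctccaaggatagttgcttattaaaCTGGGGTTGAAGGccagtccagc
Mbl2: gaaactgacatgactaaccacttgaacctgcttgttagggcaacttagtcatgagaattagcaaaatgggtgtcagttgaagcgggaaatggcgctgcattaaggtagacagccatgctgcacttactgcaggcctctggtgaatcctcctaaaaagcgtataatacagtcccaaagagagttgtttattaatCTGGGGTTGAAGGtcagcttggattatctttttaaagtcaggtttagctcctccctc
The shared run of 13 bases began 23 bases before the start of Mbl1 and 57 bases before that of Mbl2. It was found in 3 of 32851 RefSeq promoter windows of 250 bases on either strand, these 2 included. The run was chosen by comparing this pair, and no test was made on it.

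The serine proteases that the lectins activate, Masp1 and Masp2, also fell in tumors. Masp1 was 1864, 2003 and 2358 in peritumoral tissue (lowest, median, highest) and 1284, 1555 and 1671 in tumors, without overlap. Its log2 fold change was -0.44 ± 0.07 (adjusted p = 5.357e-05), and -0.56 ± 0.08 against nonDEN-L-WD (adjusted p = 1.198e-05). Masp2 was 3553, 3932 and 4523 in peritumoral tissue and 3011, 3259 and 3609 in tumors, with a log2 fold change of -0.28 ± 0.06 (adjusted p = 0.0006988). Masp2 shares 52.5% of its 50-base words with other genes, chiefly Tardbp on the opposite strand, and the use of strand in counting is not given in the sources used here.

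Masp1 was the only one of the 39 genes that was lower in every nonDEN-L-CD liver than in all 8 other livers, while Mbl1, C6, C8b and Vtn were higher in every one of them. Together these are 12.8% of the 39 genes, where 20.5% of all tested genes were apart in this way, 10.6% higher and 9.93% lower. Masp1 stood at 1549, 1497 and 1723 in nonDEN-L-CD livers, 2143, 2035, 2321 and 2444 in nonDEN-L-WD livers, and 2217, 1999, 2360 and 2079 in DEN-L-CD livers. The log2 fold change was 0.49 ± 0.10 for nonDEN-L-WD (adjusted p = 0.00157) and 0.44 ± 0.10 for DEN-L-CD (adjusted p = 0.003547). Peritumoral tissue lay -0.07 ± 0.08 from DEN-L-CD. Taken as the western diet difference of Masp1 with DEN, this differed from that without DEN by -0.56 ± 0.13 (adjusted p of the interaction = 0.009816). With DEN the western diet samples were peritumoral tissue, so diet and tissue type cannot be told apart there. The interaction called 2 of 39 genes, Masp1 and Klkb1, with 8.39% of all genes called. Both were negative, as were 3.74% of all genes, with 4.65% positive, and on the TPM scale 1 gene was higher and 2 were lower, where 6.91% of all genes were higher and 0.864% lower. Masp2 rose by 0.25 ± 0.08 in nonDEN-L-WD against nonDEN-L-CD (adjusted p = 0.03688), from 4125, 3702 and 4007 to 4782, 4191, 4969 and 4764, a call lost without any of these libraries but nonDEN-L-WD replicate 2 (adjusted p = 0.0526 to 0.1724). That call was also lost with the replicate number as a block, with no filter on low counts and with only the groups compared (adjusted p = 0.05207, 0.05461 and 0.07832). Masp2 fell by 0.24 ± 0.07 in peritumoral tissue against nonDEN-L-WD (adjusted p = 0.02037), but was 0.0022 higher on the TPM scale, and the call was lost without nonDEN-L-WD replicate 1, 3 or 4 (adjusted p = 0.06121, 0.07231 and 0.07034).

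The classical pathway proteases C1ra and C1s1 and the C2 protease, which both the classical and the lectin pathway use, moved less on the count scale. C1ra fell in tumors against peritumoral tissue by 0.23 ± 0.09 in log2 (adjusted p = 0.04798), a call lost without any of tumor replicates 1 to 5 or of peritumoral replicates 2, 3, 7 and 8 (adjusted p = 0.06477 to 0.1092). It was also lost with the replicate number as a block (-0.12, adjusted p = 0.2364) and on the TPM scale (-0.09, limma, adjusted p = 0.45). Nor did it hold with DESeq2 size factors, no filter on low counts or only the groups compared (adjusted p = 0.0539, 0.08185 and 0.1081). C1s1 had a log2 fold change of -0.21 ± 0.09 in the same comparison and did not pass. C2 rose in tumors against nonDEN-L-WD, from 1688, 1552, 1740 and 1989 to 2277 at the lowest, 2437 at the median and 2485 at the highest, with a log2 fold change of 0.47 ± 0.14 (adjusted p = 0.01022). In TPM, C2 was 36.58 to 38.52 in nonDEN-L-WD and 58.04 to 69.76 in tumors. C1ra and C1s1 share 50.8% and 35.1% of their 50-base words with other genes, among them the paralogs C1rb and C1s2.

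C3 is the protein on which all 3 pathways converge. It was 126839, 130929, 137102 and 143360 in nonDEN-L-WD, 117122, 163860 and 289763 in peritumoral tissue (lowest, median, highest), and 151462, 191705 and 243784 in tumors. All 6 tumors lay above all 4 nonDEN-L-WD livers, as for 15.8% of all tested genes. The log2 fold change of C3, 0.51 ± 0.21, did not pass (adjusted p = 0.05239), while on the TPM scale it was 0.89 and passed (limma, adjusted p = 0.00141). Cfb, the protease of the alternative pathway, rose in the same comparison, with 19928, 21432, 22187 and 23731 in nonDEN-L-WD and 18743, 30822 and 33984 in tumors. Its log2 fold change was 0.42 ± 0.13 (adjusted p = 0.009302), and only DEN-T-WD replicate 5 lay below the livers. Cfp, or properdin, which stabilises the alternative convertase, fell in tumors against peritumoral tissue by 0.51 ± 0.20 (adjusted p = 0.04338), a call lost without any of tumor replicates 1 to 4 or of peritumoral replicates 1, 2, 3 and 8 (adjusted p = 0.05002 to 0.1095). It was also lost on the TPM scale (-0.36, limma, adjusted p = 0.162), with the replicate number as a block (-0.46, adjusted p = 0.07212) and with no filter on low counts (adjusted p = 0.06281). On the count scale C3 and Cfb passed in no comparison of the non-tumor groups. On the TPM scale with limma, peritumoral tissue was higher than nonDEN-L-WD by 0.62 for C3 (adjusted p = 0.0353) and 0.44 for Cfb (adjusted p = 0.00556), and higher than DEN-L-CD by 0.57 (adjusted p = 0.033) and 0.43 (adjusted p = 0.00348), and the interaction passed for Cfb (adjusted p = 0.0385). C2 and Cfb are neighbours on chromosome 17 and share 41.5% and 73.0% of their 50-base words with other transcripts, chiefly the read-through gene Gm20547, which had a mean of 1.73 TPM.

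The terminal components form the membrane attack complex, the pore that complement inserts into target membranes. C6 binds the first part of the complex, the 3 chains of C8 follow, and C9 closes the ring. Against nonDEN-L-WD, 5 of the 6 genes of this group fell in tumors, where 23.1% of all genes fell, and the exception was C5ar1. On the TPM scale with limma the calls of C8a, C8b and C9 were lost (adjusted p = 0.09705, 0.07863 and 0.09246), and those of C6 and C8g passed. C6 had the largest fall of the 39 genes in both tumor comparisons. It was 12560, 13639 and 9950 in nonDEN-L-CD livers, 6560, 8683, 5903 and 7936 in nonDEN-L-WD livers, and 7781, 5810, 8125 and 7183 in DEN-L-CD livers. In peritumoral tissue it was 3046, 4404 and 9063 (lowest, median, highest), and in tumors 1531, 2396 and 3275. Every tumor lay below every liver of the 3 liver groups, while the highest tumor lay above the lowest peritumoral samples. The fold change of C6 was 0.448 against peritumoral tissue (log2 -1.16 ± 0.22, adjusted p = 0.0002804) and 0.320 against nonDEN-L-WD (log2 -1.64 ± 0.25, adjusted p = 1.503e-05).

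C8a and C8b, which encode the chains that enter the membrane and bind the complex, are neighbours on chromosome 4. C8b was 11991, 9714 and 9915 in nonDEN-L-CD livers, 5084, 4053, 3909 and 8352 in nonDEN-L-WD livers, and 8819, 6069, 8051 and 7225 in DEN-L-CD livers. Peritumoral samples spread from 1485 to 11690 with a median of 3506, the widest relative spread of the 39 genes in that group (coefficient of variation 74.5%), and tumors ran from 1476 to 3578 with a median of 2128. The tumors overlapped with the lower part of the peritumoral range. The log2 fold change of C8b was -1.05 ± 0.36 against peritumoral tissue (adjusted p = 0.02544) and -1.22 ± 0.41 against nonDEN-L-WD (adjusted p = 0.01763). The former was -0.63 on the TPM scale (limma, adjusted p = 0.1458) and -0.37 with the replicate number as a block (adjusted p = 0.3532), and with only the groups compared its adjusted p was 0.06715, none past the threshold. Without DEN-PT-WD replicate 7 the former was -0.71 and no longer passed (adjusted p = 0.07877). Without replicate 8 of that group or tumor replicate 4 it did not pass either (adjusted p = 0.05275 and 0.06108). Without nonDEN-L-WD replicate 4 the latter did not pass (adjusted p = 0.09282), nor did C8a (adjusted p = 0.09916) or C9 (adjusted p = 0.07467).

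The peritumoral spread ran through several genes of the group. DEN-PT-WD replicate 7 was the highest peritumoral library for 19 of the 39 genes and replicate 8 for 10, while replicates 1 and 5 were the lowest for 14 and 15. C8a ran from 9475 to 31051 in peritumoral tissue and C9 from 8345 to 21995, with replicates 7 and 8 highest for both. C9 fell in tumors against peritumoral tissue by 0.61 ± 0.22 in log2 (adjusted p = 0.02884), a call lost without any of tumor replicates 1 to 4 or of peritumoral replicates 7 and 8 (adjusted p = 0.05858 to 0.07417). That call was also lost with the replicate number as a block (-0.34, adjusted p = 0.1796), on the TPM scale (-0.47, limma, adjusted p = 0.08411) and with only the groups compared (adjusted p = 0.06888). C9 fell against nonDEN-L-WD by 0.74 ± 0.25 (adjusted p = 0.01916). C8a fell against nonDEN-L-WD by 0.89 ± 0.29 (adjusted p = 0.01547), and its value against peritumoral tissue was -0.61 ± 0.25 (adjusted p = 0.06217).

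C8g, the third chain of C8, went its own way. It was the only one of the 39 genes whose peritumoral samples did not overlap with nonDEN-L-WD (2.56%, where 6.72% of all genes did not overlap). It was 5446, 5446, 5924 and 6406 in nonDEN-L-WD livers, 6121, 6038, 4983 and 5714 in DEN-L-CD livers, and 3447, 4058 and 5161 in peritumoral tissue. Its log2 difference in peritumoral tissue was -0.50 ± 0.11 against nonDEN-L-WD (adjusted p = 0.005752) and -0.47 ± 0.11 against DEN-L-CD (adjusted p = 0.00832). On the TPM scale these were -0.27 (limma, adjusted p = 0.0458) and -0.18, of which the latter did not pass (adjusted p = 0.1361). With the replicate number as a block they were -0.39 and -0.37, and neither passed (adjusted p = 0.05723 and 0.06806). In the peritumoral samples where C8a and C8b were highest, replicates 7 and 8, C8g was lowest, at 3502 and 3447. The ratio of C8g to C8b in TPM ran from 0.796 to 7.42 over the peritumoral samples, and from 1.47 to 1.69 in nonDEN-L-CD. In tumors C8g ran from 2934 to 4262 and was lower than in nonDEN-L-WD by -0.73 ± 0.11 (adjusted p = 1.426e-05). C5ar1 was 167 in DEN-T-WD replicate 5, where the other tumors had 36 to 94. It passed in no comparison on the count scale, but on the TPM scale with limma it was 0.78 higher in tumors than in nonDEN-L-WD (adjusted p = 0.00746).

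Among the regulators, Cfi, the protease that inactivates C3b and C4b, rose in tumors. It was 12703, 17335 and 21342 in peritumoral tissue and 13321, 26792 and 28776 in tumors, and 5 of the 6 tumors lay above all peritumoral samples. Cfi rose by 0.52 ± 0.15 (adjusted p = 0.007016), and 0.78 ± 0.18 against nonDEN-L-WD (adjusted p = 0.001072). C4bp, the cofactor of Cfi against C4b, had 0.07 ± 0.10 and -0.09 ± 0.12 in the same comparisons. These were 0.23 (adjusted p = 0.0125) and 0.25 (adjusted p = 0.0137) on the TPM scale with limma, so that both passed and the latter turned direction. Vtn, or vitronectin, which keeps the terminal complex from inserting into membranes, had -0.31 ± 0.13 and -0.32 ± 0.16 and did not pass.

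Fibrinogen is a hexamer of 3 chains encoded by Fga, Fgb and Fgg, which lie within 42.1 kb of chromosome 3. The 3 genes gave the largest changes between liver groups, and they moved as a block. Fga was 176150, 351336 and 336831 in nonDEN-L-CD livers, 114837, 75887, 103096 and 190486 in nonDEN-L-WD livers, and 193896, 108136, 134385 and 154220 in DEN-L-CD livers. Fgb was 156049, 312082 and 325900, then 104471, 69442, 94565 and 179953, then 195102, 106504, 127352 and 137499 in the same order. Fgg was 140937, 280244 and 284335, then 88359, 60783, 81758 and 150479, then 155239, 88435, 101745 and 118455. Control replicates 2 and 3 were about 2 times replicate 1 for each chain (1.91 to 2.09), and replicate 1 lay within the range of the other livers.

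**Figure D3:**
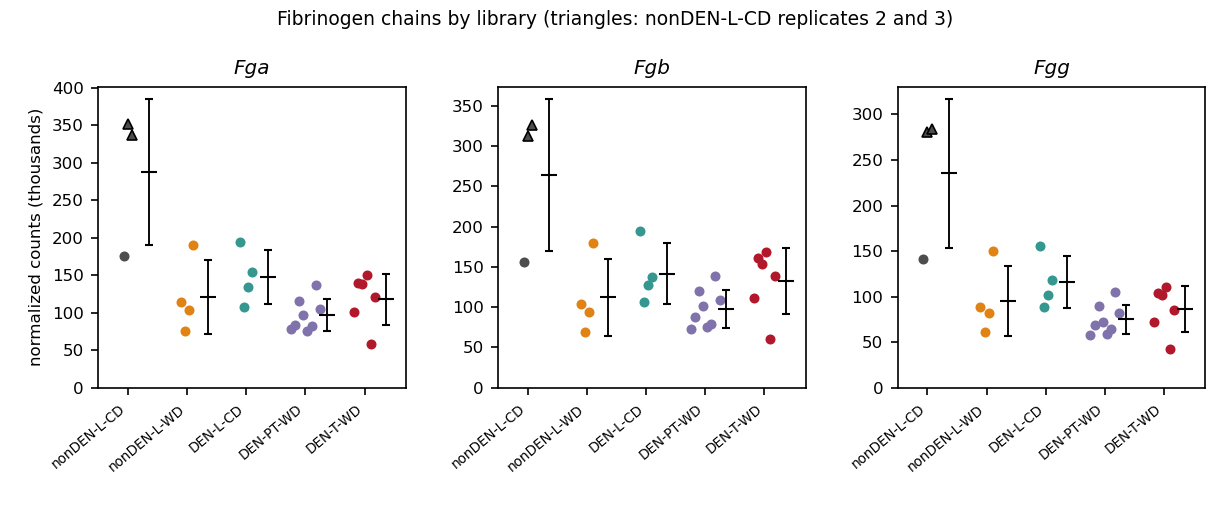
Normalized counts (vertical axis, scaled as labelled) of the 3 fibrinogen genes in each library by group, with the group mean and SD beside the points. The control replicates 2 and 3 (triangles) lie between 280244 and 351336 over the 3 genes, above every other library of the same gene.

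In nonDEN-L-WD against nonDEN-L-CD the 3 chains fell, with fold changes of 0.420 for Fga (log2 -1.25 ± 0.31, adjusted p = 0.006226), 0.424 for Fgb (log2 -1.24 ± 0.33, adjusted p = 0.009964) and 0.405 for Fgg (log2 -1.30 ± 0.31, adjusted p = 0.004759). They were the only 3 of the 39 genes past 2-fold there, where 5.28% of all genes were. In DEN-L-CD against nonDEN-L-CD, Fgg fell to 0.493 (log2 -1.02 ± 0.31, adjusted p = 0.02284) and Fga to 0.513 (log2 -0.96 ± 0.31, adjusted p = 0.03082), while Fgb at -0.90 ± 0.33 did not pass (adjusted p = 0.05572). Fgg was the only one of the 39 genes past 2-fold there, where 4.7% of all genes were. These values rested on the control replicates with high acute phase RNA. Of the 16 acute phase genes, 11 fell with western diet and 10 with DEN, where 12% and 12.2% of all genes fell, among them Saa1 with log2 fold changes of -4.15 and -3.79 and Lcn2 with -3.11 and -2.44. With replicates 2 and 3 both left out, Fga had a log2 fold change of -0.53 in nonDEN-L-WD and -0.25 in DEN-L-CD. Klkb1 then had 0.22 and 0.17, while Masp1 kept 0.54 and 0.49. With a lone control library, assumed to vary like the other groups, no member was called in these comparisons by edgeR (2 and 1 at an unadjusted p of at most 0.05), and the share of all genes called dropped to 2.37% and 2.39%. With only replicate 2 or only replicate 3 left out, the genes called were Fga, Fgg and Masp1 in nonDEN-L-WD and Masp1 in DEN-L-CD. Fgb then lost its call in nonDEN-L-WD (adjusted p = 0.05696 and 0.05546), and in DEN-L-CD so did Fga (adjusted p = 0.1526 and 0.1144) and Fgg (adjusted p = 0.1151 and 0.1026). The Fga call in DEN-L-CD was also lost on the TPM scale (limma, adjusted p = 0.0569). Without DEN-L-CD replicate 2 or replicate 3, the DEN-L-CD count was 1 and 2.

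No fibrinogen gene passed the test between peritumoral tissue and tumors at an adjusted p of at most 0.05. Fga was 74997, 90195 and 137500 in peritumoral tissue and 58327, 129335 and 150589 in tumors, with a log2 difference of 0.29 ± 0.22 (adjusted p = 0.3316). The difference was 0.43 ± 0.24 for Fgb and 0.20 ± 0.22 for Fgg. The lowest tumor for each chain was replicate 5, and without it Fgb had 0.58 ± 0.22 and passed (adjusted p = 0.0347). Against DEN-L-CD, peritumoral tissue had -0.61 ± 0.25 for Fga, -0.53 ± 0.26 for Fgb and -0.63 ± 0.25 for Fgg, none past the threshold.

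The chains kept near-constant proportions while their levels varied. Over the 25 libraries Fga ran from 1940 to 8103 TPM, but the TPM ratio of Fga to Fgb stayed between 1.60 and 2.09 and that of Fgg to Fga between 0.881 and 1.05. The medians of both ratios were lowest in tumors, at 1.65 and 0.907, against 2.07 and 0.994 in nonDEN-L-CD. These are descriptions over libraries that share a depth and a scale, with no test.

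Since the chains moved together, the bases before their RefSeq starts (GRCm38.p6) are shown, at chr3:83025903-83026075 on the plus strand for Fga, chr3:83049864-83050113 on the minus strand for Fgb and chr3:83007474-83007723 on the plus strand for Fgg. Bases inside the GENCODE gene were left off. The letters CTGGGA, the core of the element by which interleukin-6 acts on fibrinogen genes in the literature, are in capitals.
Fga: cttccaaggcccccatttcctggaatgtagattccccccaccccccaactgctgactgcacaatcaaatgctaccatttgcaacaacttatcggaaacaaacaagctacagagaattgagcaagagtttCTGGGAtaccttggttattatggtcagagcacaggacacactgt
Fgb: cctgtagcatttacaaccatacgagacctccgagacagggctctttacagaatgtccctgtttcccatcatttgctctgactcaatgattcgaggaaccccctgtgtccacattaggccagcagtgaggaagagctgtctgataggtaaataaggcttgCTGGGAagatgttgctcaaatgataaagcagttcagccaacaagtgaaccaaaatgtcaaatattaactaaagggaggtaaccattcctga
Fgg: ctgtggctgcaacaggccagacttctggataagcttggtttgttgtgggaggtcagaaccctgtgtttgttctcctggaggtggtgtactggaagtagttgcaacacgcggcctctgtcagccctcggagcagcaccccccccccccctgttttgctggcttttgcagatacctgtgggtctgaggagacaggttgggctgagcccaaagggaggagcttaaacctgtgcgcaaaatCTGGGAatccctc
In the 250-base windows, CTGGGA began 121, 91 and 13 bases before the start of Fga, Fgb and Fgg, each time as spelled. On either strand it was found in 27.0% of all 32851 RefSeq windows and in 15 of the 34 windows (44.1%) of the 32 members with an entry. A match of these 6 letters is a description, not a site, and it was searched after the values were seen.

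The clotting factors are liver enzymes and cofactors, several of which need vitamin K for their synthesis. F11, the factor that thrombin feeds back on, rose in tumors. It was 856, 1187 and 1577 in peritumoral tissue and 1011, 2277 and 2655 in tumors, and 5 of the 6 tumors lay above all peritumoral samples. The rise was 0.80 ± 0.19 (adjusted p = 0.001639), and 0.64 ± 0.23 against nonDEN-L-WD (adjusted p = 0.02389). The latter did not pass without nonDEN-L-WD replicate 2 (adjusted p = 0.09757) or replicate 3 (adjusted p = 0.05153), nor without tumor replicate 2 or 3 (adjusted p = 0.0505 and 0.0516).

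F13b, the carrier subunit of the enzyme that cross-links fibrin, fell in tumors. It was 5762, 6574 and 7209 in peritumoral tissue and 4201, 5047 and 5712 in tumors, without overlap. It fell by a log2 fold change of -0.38 ± 0.08 (adjusted p = 0.0008582), and -0.39 ± 0.10 against nonDEN-L-WD (adjusted p = 0.001956), where it was -0.05 on the TPM scale and the call was lost (limma, adjusted p = 0.5589). F9, whose loss causes hemophilia B, fell against peritumoral tissue by 0.28 ± 0.10 (adjusted p = 0.03204), a call lost without tumor replicate 1, 2 or 5 or peritumoral replicate 2, 7 or 8. The F9 call was also lost with the replicate number as a block (-0.19, adjusted p = 0.1484), on the TPM scale (-0.14, limma, adjusted p = 0.1679), with only the groups compared (adjusted p = 0.0596) and with no filter on low counts (adjusted p = 0.0547). F2 (prothrombin), F5, F7, F10 and F12 passed in no comparison on the count scale, and their log2 values in tumors against peritumoral tissue lay between -0.15 and 0.16. With limma on TPM, tumors were higher than nonDEN-L-WD in F2 (0.49, adjusted p = 0.00118), F10 (0.22, adjusted p = 0.0279) and F12 (0.32, adjusted p = 0.026), and peritumoral tissue was higher than DEN-L-CD in F5 (0.33, adjusted p = 0.0469), F9 (0.31, adjusted p = 0.011) and F13b (0.19, adjusted p = 0.0211). F13b also passed there as higher than nonDEN-L-CD in DEN-L-CD (0.35, adjusted p = 0.00651) and nonDEN-L-WD (0.32, adjusted p = 0.00852), and as higher in peritumoral tissue than in nonDEN-L-WD (0.22, adjusted p = 0.0175).

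The contact system starts coagulation on surfaces and releases bradykinin. Klkb1 encodes plasma prekallikrein, the protease that cuts kininogen, and Kng1 encodes kininogen, the source of bradykinin. In tumors these partners went opposite ways. Klkb1 was 5358, 6115 and 7837 in peritumoral tissue and 3444, 3806 and 4459 in tumors, without overlap, a log2 fold change of -0.73 ± 0.10 (adjusted p = 6.841e-06). Kng1 was 39062, 53167 and 81782 in peritumoral tissue and 36837, 120872 and 177626 in tumors, a log2 fold change of 1.04 ± 0.23 (adjusted p = 0.001009). The lowest tumor was replicate 5, below all peritumoral samples, and the other 5 tumors, from 109635 upwards, lay above all of them. Without replicate 5 the value was 1.22 ± 0.16 (adjusted p = 3.766e-06).

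Against nonDEN-L-WD the pair parted further. Kng1 was 44346, 39815, 46545 and 58756 in those livers, and tumors were higher by 1.34 ± 0.29 in log2, or 2.53-fold (adjusted p = 0.0005058). Klkb1 was 8416, 7387, 8641 and 11151, and tumors were lower by -1.20 ± 0.11, a fold change of 0.435 (adjusted p = 3.653e-08). In TPM, which scales both genes to length, Kng1 was 14.7 to 37.99 times Klkb1 in the other groups and 28.2 to 110 times in tumors, where the lowest ratio was that of replicate 5. Kng1 shares 17.2% of its 50-base words with other genes, chiefly the paralog Kng2.

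Klkb1 also set the non-tumor groups apart. It was 7686, 5328 and 5924 in nonDEN-L-CD and 8722, 8980, 8417 and 8272 in DEN-L-CD. It rose in nonDEN-L-WD by 0.50 ± 0.14 (adjusted p = 0.01246) and in DEN-L-CD by 0.45 ± 0.14 (adjusted p = 0.02441) against nonDEN-L-CD. It fell in peritumoral tissue by 0.47 ± 0.11 against nonDEN-L-WD (adjusted p = 0.008618) and by 0.42 ± 0.11 against DEN-L-CD (adjusted p = 0.01675). On the TPM scale the last value was -0.12 and did not pass (limma, adjusted p = 0.2563). The interaction, in which diet and tissue type again cannot be told apart, was -0.91 ± 0.18 (adjusted p = 0.003053), and -0.72 on the TPM scale (limma, adjusted p = 0.00259). The diet value did not pass without nonDEN-L-CD replicate 2 (adjusted p = 0.09975) or replicate 3 (adjusted p = 0.06076). The DEN value did not pass without the same libraries (adjusted p = 0.1638 and 0.09847) or DEN-L-CD replicate 2 (adjusted p = 0.05817), and the peritumoral values did not pass without nonDEN-L-WD replicate 4 (adjusted p = 0.06919) or DEN-L-CD replicate 1 (adjusted p = 0.05151). With control replicates 2 and 3 both left out the diet and DEN values of Klkb1 were 0.22 and 0.17, neither past the threshold, and the interaction was -0.65 ± 0.22 for Klkb1 (adjusted p = 0.2256) and -0.62 ± 0.18 for Masp1 (adjusted p = 0.1426). Klkb1 shares 42.7% of its 50-base words, and the same strand, with the overlapping gene model Gm45753, at a mean of 33.7 TPM against 65.5 TPM for Klkb1.

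F11 and Klkb1 are paralogous proteases and neighbours on chromosome 8. Outside tumors the TPM ratio of F11 to Klkb1 was 0.313 to 0.635. In tumors it was 0.661 to 1.56, with no overlap. The lowest tumor ratio belonged again to replicate 5.

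**Figure D4:**
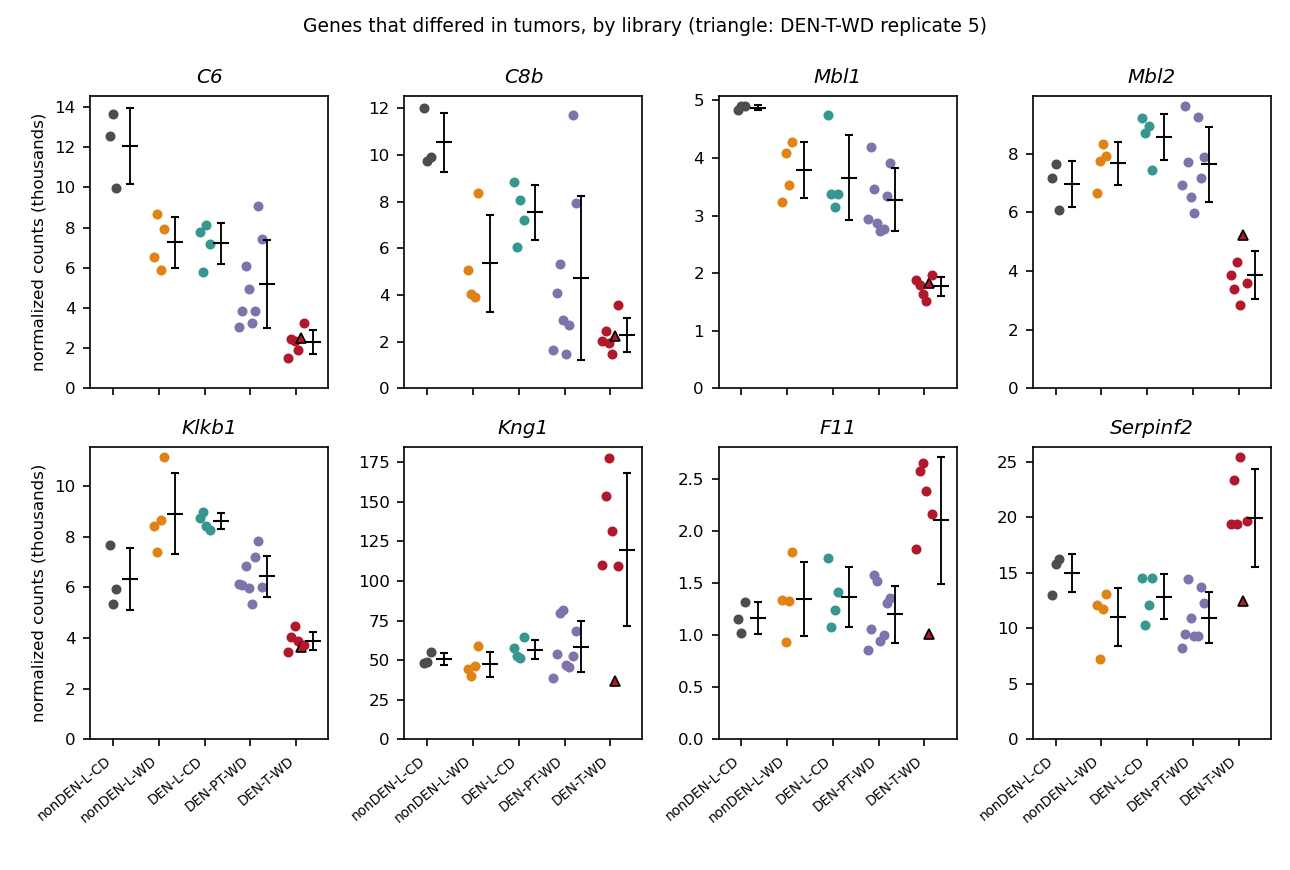
Normalized counts (vertical axis, scaled as labelled) of 8 genes in each library by group, with the group mean and SD beside the points. Mbl1, Mbl2 and Klkb1 separate all tumors from all other libraries, whereas Kng1, F11 and Serpinf2 are high in the tumors other than replicate 5 (triangle).

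The natural anticoagulants are inhibitors and proteases that limit clotting. Serpinc1, or antithrombin, which inhibits thrombin and factor Xa, was 27749, 30722 and 34850 in peritumoral tissue and 25453, 25932 and 26089 in tumors. The 6 tumors had the smallest spread of the 39 genes in that group (coefficient of variation 1.05%) and lay below all peritumoral samples. The log2 fold change was -0.28 ± 0.06 (adjusted p = 0.0007929), and -0.39 ± 0.07 against nonDEN-L-WD (adjusted p = 9.112e-05). On the TPM scale these were -0.14 and -0.01 and did not pass. Serpinc1 also fell in peritumoral tissue against DEN-L-CD (log2 -0.26 ± 0.07, adjusted p = 0.01547). It was 36000, 37039, 40242 and 37008 in the latter, with no overlap, where 3.07% of all genes lay wholly lower. This difference did not pass without DEN-L-CD replicate 3 (adjusted p = 0.07004), and was 0.04 higher on the TPM scale. Serpinc1 shares 33.6% of its 50-base words with other genes, chiefly Zbtb37 on the opposite strand, at a mean of 2.84 TPM against 1827 TPM for Serpinc1.

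Serpind1, or heparin cofactor II, which inhibits thrombin, rose in tumors. It was 10090, 11783 and 14389 in peritumoral tissue and 8231, 18643 and 22026 in tumors, with a log2 fold change of 0.57 ± 0.15 (adjusted p = 0.004676). Without replicate 5 it was 0.72 ± 0.11 (adjusted p = 1.238e-05), and all 5 remaining tumors lay above all peritumoral samples. Proc, the protease zymogen of protein C, fell in tumors against nonDEN-L-WD by 0.26 ± 0.09 (adjusted p = 0.02615), and was 0.087 higher on the TPM scale. That call was lost without nonDEN-L-WD replicate 3 (adjusted p = 0.06481) or 4 (adjusted p = 0.08194). Pros1, the protein C cofactor, had 0.45 ± 0.15 in peritumoral tissue against DEN-L-CD (adjusted p = 0.05026), with no overlap between 1996 to 3492 and 1708 to 1857, where 4.38% of all genes lay wholly higher. It was 0.72 on the TPM scale and passed there (limma, adjusted p = 0.00136).

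Fibrinolysis dissolves clots through plasmin, which comes from the Plg product. Serpinf2, or alpha2-antiplasmin, the main plasmin inhibitor, rose in tumors. It was 8200, 10207 and 14421 in peritumoral tissue and 12459, 19515 and 25415 in tumors. The rise was 0.86 ± 0.16 (adjusted p = 0.0001681), and 0.85 ± 0.19 against nonDEN-L-WD (adjusted p = 0.000864), where the livers had 12086, 7244, 11694 and 13076. Replicate 5 was the only tumor within the peritumoral range. Plg had log2 values of 0.04 ± 0.12 and -0.02 ± 0.15 in the same comparisons, with 37356, 44878 and 66312 in peritumoral tissue and 33129, 51078 and 54214 in tumors. Cpb2, a carboxypeptidase that protects fibrin from plasmin, was 8097, 9579 and 13997 in peritumoral tissue. In tumors it was 7602 to 10919 in 5 libraries and 33565 in replicate 5. Tumors were higher than nonDEN-L-WD on the TPM scale by 0.33 in Plg (limma, adjusted p = 0.0302) and by 0.69 in Cpb2 (adjusted p = 0.033).

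DEN-T-WD replicate 5 was the lowest tumor for 20 of the 39 genes and the highest for 6. It had the low hepatocyte marker sum given above, and the highest marker sums of the tumors for Kupffer cells and macrophages (667 TPM) and for neutrophils (33.97 TPM, with 6 to 22 TPM in the others). The neutrophil sum was chiefly S100a8 and S100a9, which reached 15.23 and 17.75 TPM in tumors, while no other marker of that list passed 0.56 TPM. Fibrinogen was 0.413 to 0.450 of the mean of the other tumors, F2 0.528, F5 0.455, Serpind1 0.426 and Kng1 0.270. Pros1 was 1.70 times, C5ar1 2.77 times and Cpb2 3.57 times that mean. Mbl1, C6, C8b, Klkb1 and Serpinc1 were within 10% of it (0.934 to 1.08), while Mbl2 and C9 were 1.45 and 1.68 times it. The part of cell composition in these values was not tested. Without this library 22 of 39 genes were called against peritumoral tissue, 10 higher and 12 lower, with 41.3% of all genes called. F2, F5, F12, Cfb and Fgb were then called higher and Pros1 lower, and C1ra and F9 were no longer called. In the remaining tumors 13 genes did not overlap with peritumoral tissue (33.3%, where 19.0% of all genes did not overlap), 7 higher and 6 lower. Replicate 5 was singled out after its values for these genes were seen, so these counts are a description, not a test. With all 6 tumors 6 genes did not overlap (15.4%, with 9.45% of all genes), all of them lower in tumors, as were 5.17% of all genes.

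**Figure D5:**
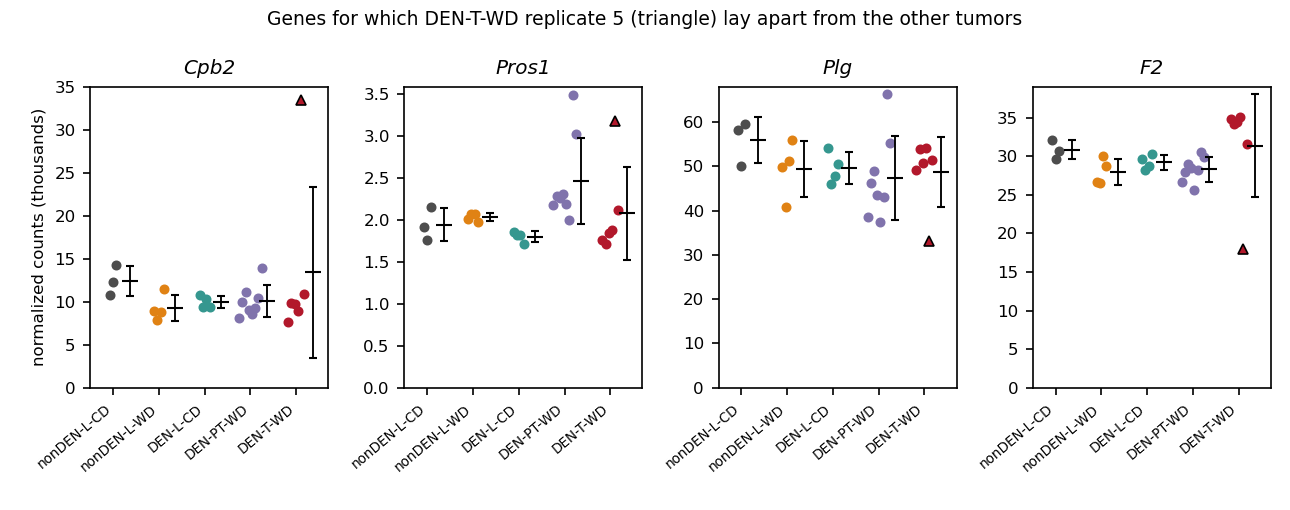
Normalized counts (vertical axis, scaled as labelled) of 4 genes in each library by group, with the group mean and SD beside the points. DEN-T-WD replicate 5 (triangle) is above the other tumors for Cpb2 (33565) and Pros1 (3177) and below them for Plg (33129) and F2 (17958).

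Other genes of the pathways, from lists kept apart from the 39, moved in tumors as well. Of 29 complement companions tested, 11 fell and 1 rose in tumors against peritumoral tissue, where 18.1% of all genes fell and 19.5% rose. That background holds for the other lists too. Among them C4a fell by 1.17 ± 0.24 in log2 (adjusted p = 0.0005007) and Cfd, or adipsin, the protease that activates Cfb, by 1.38 ± 0.50 (adjusted p = 0.03257). Of 27 hemostasis companions tested, 10 rose and 3 fell. F2rl1, a protease-activated receptor, rose by 2.14 ± 0.45 (adjusted p = 0.0006945). Of 4 genes of the vitamin K cycle, 2 rose and 1 fell. Of the 16 acute phase genes, 3 rose and 3 fell, with Lcn2 higher by 2.15 ± 0.61 (adjusted p = 0.008011) and Orm3 lower by -1.40 ± 0.41 (adjusted p = 0.009244). The median log2 fold change was -0.18 over the complement companions, 0.33 over the hemostasis companions and 0.01 over all tested genes. These splits are on the count scale. In summed TPM the complement companions had a median of 5052 in tumors (4778 to 6022) and of 4404 in peritumoral tissue (3587 to 5989).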

How the data were processed

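RNA of 25 samples was sequenced by the authors as single-end reads on a HiSeq 2500 from KAPA mRNA HyperPrep libraries, and aligned with STAR and counted with RSEM on GRCm38, per the labels and the methods of the study. Versions, annotation release and strand setting are not given in the sources used here. The deposited files hold expected counts and TPM per gene. Expected counts were rounded, genes were kept by filterByExpr with a minimum count of 10, libraries were scaled by TMM, and all 5 groups were fitted together with edgeR 4.0.16 (glmQLFit and glmQLFTest, R 4.3.3) with Benjamini-Hochberg adjustment over 15625 genes. Standard errors are the log2 fold change over the square root of F. Python 3.11.15 was used for the rest, and the fit was tested on simulated data. No batch is given in the labels. No libraries were duplicates.

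Members and lists were chosen with earlier results of these data known. Values by sample follow a rule: per comparison up to 5 members with the largest log2 fold change past both thresholds (up to 3 past adjusted p alone where fewer than 3 pass), and the fibrinogen and mannose-binding lectin genes. Companions named are up to 3 higher and 3 lower past both thresholds in tumors against peritumoral tissue, where the group with the higher mean reached 100 normalized counts; 1 of them is not reported here. Other members given by sample were chosen after their values were seen. Alternatives were DESeq2 1.42.0, its size factors, no filter, only the groups compared, a replicate block, limma 3.58.1 on log2(TPM + 1), and leaving out each library. Gene positions are of GRCm38 (GENCODE M21) and promoter sequences of RefSeq (GRCm38.p6). Same-numbered samples were compared for pairing.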

Additional observations from a re-analysis of the deposited data

Results flagged for a closer look

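In groups of 4 to 10 samples, the highest or lowest library of a gene was compared with the rest of its group by Dixon's ratio at the 95% level, which chance passes in about 1 in 20 groups. It was passed in 11 of 156 tests (7.05%). Of these, 8 lay in DEN-T-WD replicate 5, with normalized counts of 18743 for Cfb, 17958 for F2, 731 for F7, 3869 for F12, 3177 for Pros1, 8230 for Serpind1, 33129 for Plg and 33565 for Cpb2. The others were Mbl1 at 4746 and Proc at 6936 in DEN-L-CD replicate 1, and F9 at 8868 in nonDEN-L-WD replicate 4, each the highest of its group. The interaction of DEN with diet was -0.56 for Masp1 and -0.91 for Klkb1, in log2 in edgeR's quasi-likelihood test. Its DEN side set peritumoral tissue against DEN-L-CD liver, so diet and tissue type cannot be told apart.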

How the results depend on the processing

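Of 56 called values of single genes, 34 kept their call under every other test, scaling or filter, and 30 also without any single library. On log2(TPM + 1), 3 called values reversed: Proc in tumors against nonDEN-L-WD (0.087), Serpinc1 in peritumoral tissue against DEN-L-CD (0.044) and Masp2 in peritumoral tissue against nonDEN-L-WD (0.0022). The cause was not tested. Genes called in DEN-L-CD against nonDEN-L-CD were 7 with DESeq2 and 8 with only the groups compared, and those past 2-fold were 2 with the replicate block and 0 on TPM. Peritumoral tissue against nonDEN-L-WD had 9 calls on TPM. Against DEN-L-CD it had 5 with DESeq2, 5 with the block, 12 on TPM and 7 with only the groups compared, and 1 past 2-fold with the block. Tumors against peritumoral tissue had 0 past 2-fold with the block and 1 on TPM. Leaving out both nonDEN-L-CD replicates 2 and 3, chosen after seeing the data, gave 0 calls by either rule against nonDEN-L-CD and 0 in the interaction in edgeR (2, 1 and 3 at an unadjusted p under 0.05). Leaving out 1 library gave these ranges of calls, and of calls past 2-fold: 3 to 6 and 2 to 3 for western diet alone, 1 to 6 and 0 to 3 for DEN alone, 1 to 4 and 0 to 0 for peritumoral tissue against nonDEN-L-WD, 2 to 4 and 0 to 0 against DEN-L-CD, 14 to 22 and 1 to 4 for tumors against peritumoral tissue, 16 to 22 and 4 to 6 against nonDEN-L-WD, and 2 to 3 and 0 to 1 for the interaction. For DEN alone the calls past 2-fold were 3 without nonDEN-L-CD replicate 1 or DEN-L-CD replicate 1 and 0 without replicate 2 or 3 of either group, and the interaction had 1 without nonDEN-L-CD replicate 1. The low ends came without nonDEN-L-CD replicate 2 or 3 for western diet (3), without nonDEN-L-WD replicate 4 for peritumoral tissue (1) and without DEN-PT-WD replicate 7 for tumors past 2-fold (1). Same-numbered samples correlated at -0.230 to 0.389 over 24 pairs, 9 of them over 0.1. Most of these pairs joined groups of different mice. Pairs of tumor and peritumoral tissue ran from -0.23 (replicate 1) to 0.34 (replicate 4). Only same-numbered samples were compared, so whether the numbers pair tumor with peritumoral samples was not tested. With the block, tumors had 15 calls against peritumoral tissue and 22 against nonDEN-L-WD.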
